A study of Mus musculus with 6 samples.

Results

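The 39 genes described here encode the core autophagy machinery, from the kinase that starts the process to the receptors that bind its cargo. They were chosen by symbol, as genes for initiation, conjugation and cargo binding that act downstream of AMPK and mTORC1, and each symbol matched 1 of the 55450 rows of the count table. All 39 were among the 14539 genes that passed the filter on low counts. Liver RNA came from 2 groups of 3 mice, labelled as strain C57BL/J and 10 weeks old. The knockout (KO) mice carried LKB1 fl/fl, that is loxP-flanked alleles of the kinase gene Stk11, and the wild type (WT) mice carried normal alleles. Both groups had received AAV8 Cre, an adeno-associated virus that carries the Cre recombinase to liver cells, at 6 weeks of age, so the controls had been exposed to virus and Cre as well. By the ages given, livers were collected 4 weeks later. For each mouse 1 library was made from the left lobe, and the promoter that drove Cre is not given in the sources used here.

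Autophagy encloses cytoplasm in a double membrane and delivers it to lysosomes for breakdown. LKB1 activates AMPK, which can activate the initiating kinase ULK1, whereas the nutrient-sensing kinase complex mTORC1 inhibits it and also keeps the transcription factors TFEB and TFE3 out of the nucleus. In liver the process is known for supplying amino acids, glucose and fatty acids during fasting. Much of this control acts on phosphorylation of proteins, which RNA counts do not measure. The comparison of KO with WT asks which transcripts of this machinery differed after deletion of LKB1.

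Total counts per library ran from 47659122 to 56147667, and the lowest count of any of the 39 genes in any library was 132, for Atg10. Stk11 (GRCm38 chromosome 10, 80115803 to 80130682) had 22.2, 14.4 and 11.4 CPM in the KO libraries and 66.1, 64.2 and 69.7 CPM in WT, where CPM is the count relative to the TMM-scaled size of the library. Its adjusted p-value was 0.0167 in edgeR's quasi-likelihood test. Replicate 1 of each group carried Xist counts (the Xist pair), and replicates 2 and 3 carried counts of Y-linked genes (the Y-linked libraries), so both groups held libraries of both kinds. The 7 hepatocyte markers were each at 489 CPM or more in every library and added up to 23100 to 70900 CPM in KO and 82600 to 120000 CPM in WT, with 3 of the 7 below and 2 above WT without overlap (15.5% and 16.9% of all genes tested were below and above). The 6 endothelial markers added up to 67.2 to 112 CPM in KO and 135 to 185 CPM in WT, with 5 of the 6 below WT without overlap, again beside 15.5% of all genes. Macrophage, stellate, cholangiocyte and lymphocyte marker sums overlapped between groups over all 6 libraries. Most of the lymphocyte sum was Ptprc. Log2 fold changes were negative for the other 4 lymphocyte markers, with Cd3e below WT without overlap at means of 0.10 CPM in KO and 0.30 CPM in WT. The 4 neutrophil markers added up to 1.06 to 2.04 CPM in KO and 0.733 to 1.11 CPM in WT. The 3 tested had positive log2 fold changes, S100a9 without overlap, and Ly6g was at 0 in every library. None of these markers passed the threshold of the test, and their part in the results was not tested. In whole tissue, fewer cells of a type and less RNA per cell cannot be told apart.

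None of the 39 autophagy genes passed the threshold between KO and WT, an adjusted p-value of 0.05 over all genes tested in edgeR's quasi-likelihood test, against 3.37% of all genes tested (313 genes higher in KO, 2.15%, and 177 lower, 1.22%). With scaling by library size alone the split over all genes was 380 higher and 131 lower, and again none of the 39 passed. The smallest adjusted p-value among them was 0.0587, for Wipi1. Of the 39 genes 8 had an unadjusted p-value under 0.05, compared with 26.3% of all genes. Among these, Wipi1, Ulk2, Gabarapl1, Atg101, Atg9a and Atg4a had lower values in KO (6 genes, or 15.4%, against 11.7% of all genes), and Uvrag and Tfe3 had higher values (5.13%, against 14.6%). DESeq2, run on the same libraries, called 5 genes (Ulk2, Atg101, Wipi1, Atg9a and Gabarapl1, all lower), and limma voom called 0, with 8 at an unadjusted p-value under 0.05. DESeq2 called 15.8% of all genes. Without KO 1 edgeR called 6 of the 39, which are named with the other fits on fewer libraries.

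The median log2 fold change of the 39 genes was -0.13, compared with 0.01 over all genes tested. It was -0.07 without WT 2, -0.08 without KO 1 and -0.08 with scaling by library size alone, where the median of all genes was 0.01, -0.01 and 0.06. In the fit on all libraries the log2 fold change was negative for 26 genes and positive for 13, that is 33.3%, where 51% of all genes tested were positive, with a range from -1.42 to 0.43. In 13 genes every KO library lay below every WT library, and in 2 genes every KO library lay above, that is 33.3% and 5.13% of the 39, where 15.5% and 16.9% of all genes tested did so. The 95% interval of the fold change lay within 2-fold in both directions for 35 of the 39 genes and within 1.5-fold for 21. The other intervals reached a 2-fold lower level in Ulk2, Wipi1 and Gabarapl1 and a 2-fold higher level in Sqstm1. Expression of the 39 genes added up to 2230, 2670 and 2430 CPM in the KO libraries and 2430, 2850 and 2660 CPM in WT, and the groups overlapped.

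**Figure D1:**
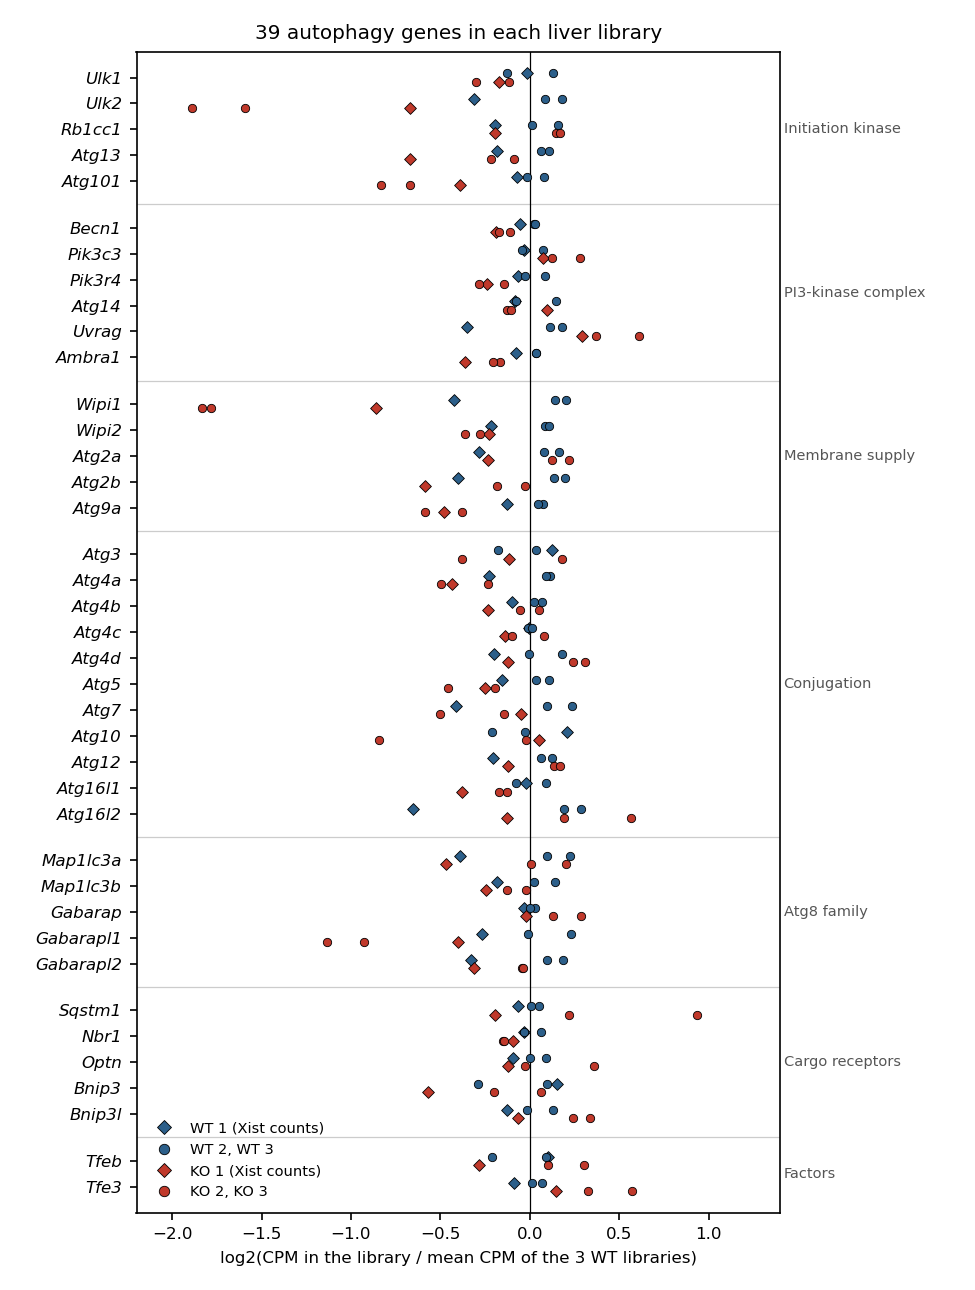
Level of each of the 39 genes in each library as log2 of its CPM over the mean CPM of the 3 WT libraries, with WT in blue, KO in red, and diamonds for replicate 1. Of the 117 red points 97 lie within 0.5 of the WT mean, and the red circles of Ulk2, Wipi1 and Gabarapl1 lie farthest to the left.

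**Figure D2:**
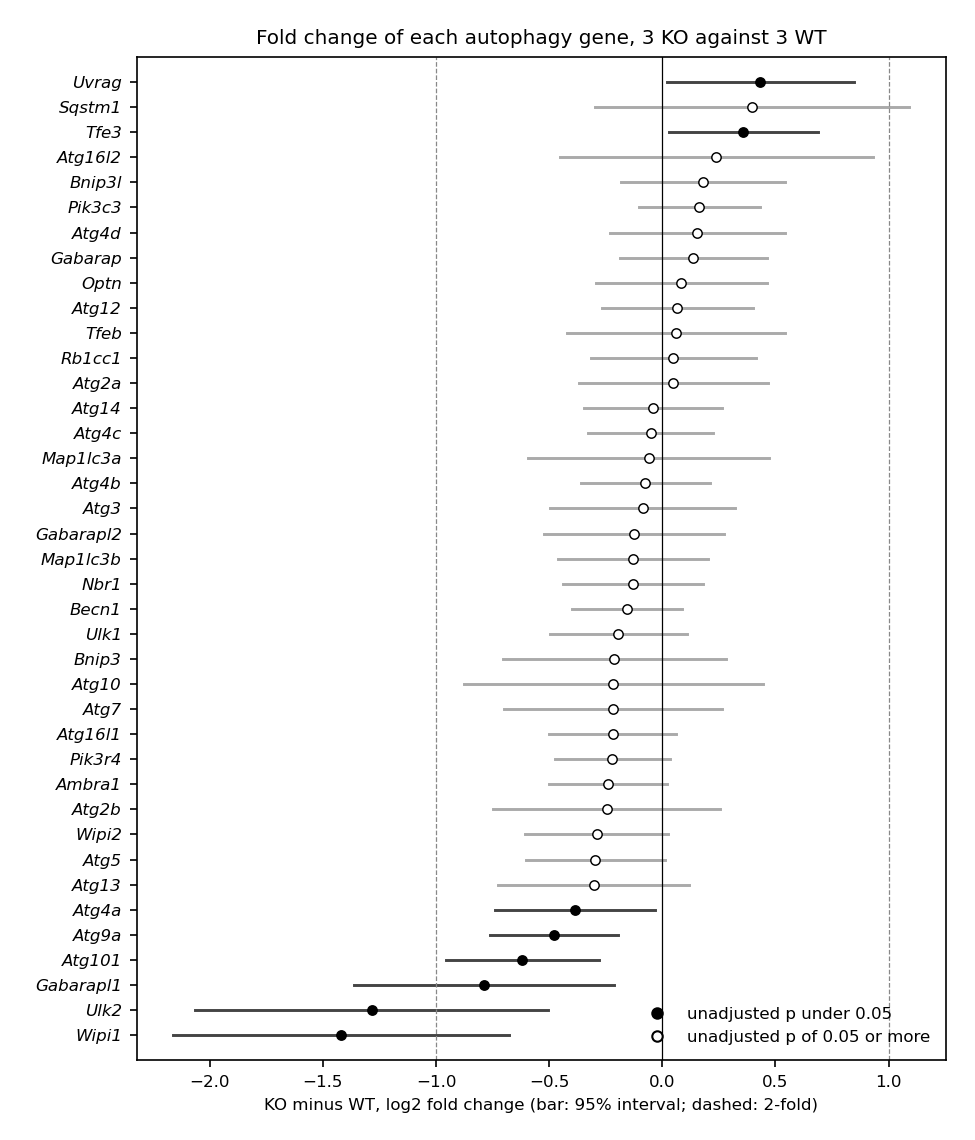
Log2 fold change of KO over WT for each of the 39 genes (points) with its 95% interval (bars) from edgeR, ordered by size, with dashed lines at a 2-fold change. The 8 filled points have an unadjusted p-value under 0.05, and 35 intervals stay between the dashed lines.

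The initiation kinase consists of ULK1 or its relative ULK2 with the scaffold RB1CC1 (also called FIP200), ATG13 and ATG101, which stabilises ATG13. Ulk2 (chromosome 11, 61775649 to 61855073) had 63.7, 27.4 and 33.5 CPM in KO and 81.4, 115 and 107 CPM in WT. Every KO library was below every WT library, and replicate 1 of each group lay nearest to the other group. On average KO stood at 41.5 ± 19.4 CPM and WT at 101.2 ± 17.6 CPM (SD, n = 3). This gave -1.29 ± 0.33 as log2 fold change with its SE, at an adjusted p of 0.0756. Ulk1 (chromosome 5, 110784488 to 110810097), the kinase that AMPK phosphorylates, had 78.2, 81.4 and 71.6 CPM in KO and 87.1, 96.5 and 80.7 CPM in WT. Here the groups overlapped, and the log2 fold change of -0.19 had a 95% interval from -0.50 to 0.11.

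Atg101 (chromosome 15, 101284272 to 101290945) had 22.6, 16.6 and 18.7 CPM in KO and 28.2, 31.3 and 29.4 CPM in WT, again with no overlap. Its log2 fold change was -0.62 ± 0.14 (SE; adjusted p = 0.0636). For Rb1cc1 and Atg13 the groups overlapped, with log2 fold changes of 0.05 and -0.30. Per kilobase of annotated exon, the ratio of Ulk2 to Ulk1 was 0.884, 0.365 and 0.509 in KO and 1.01, 1.29 and 1.44 in WT. Ulk2 was thus above Ulk1 in each WT library and below it in each KO library on this scale, though by a margin of only 1.01 to 1 in WT 1, a comparison chosen after the values were seen and given without a test.

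The class III PI3-kinase complex marks the forming membrane with a phospholipid and contains the lipid kinase PIK3C3 (VPS34), PIK3R4 and BECN1, joined by either ATG14 or UVRAG. Uvrag (chromosome 7, 98885021 to 99141141) had 32.0, 33.8 and 39.96 CPM in KO and 20.5, 28.3 and 29.6 CPM in WT, with no overlap. Its log2 fold change was 0.43 ± 0.17 (SE; adjusted p = 0.174). Stretches of 344 to 345 nt of Uvrag share 95.1% to 95.6% identity with transcripts of Mettl6, Klhl20 and Txndc16. The counts of these genes over the 6 libraries were 35.3%, 25.3% and 14.9% of those of Uvrag. How reads were divided among them is not known. Becn1 (chromosome 11, 101285952 to 101302286) had 45.2, 47.7 and 45.6 CPM in KO and 49.6, 52.4 and 52.5 CPM in WT. These groups did not overlap either, but the log2 fold change was only -0.16 ± 0.10, with a 95% interval from -0.40 to 0.08. Ambra1 (chromosome 2, 91730134 to 91918849), whose product binds BECN1, had 21.5, 24.7 and 24.0 CPM in KO and 26.2, 28.4 and 28.4 CPM in WT (log2 fold change -0.24 ± 0.11, adjusted p = 0.218). Pik3r4 was at -0.22 with no overlap, and Pik3c3 and Atg14 overlapped between groups at 0.16 and -0.04.

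WIPI proteins read the phospholipid mark, ATG2 proteins transfer lipid, and ATG9A is the membrane protein of the vesicles that seed the structure. Wipi1 (chromosome 11, 109573331 to 109611967) had 9.69, 4.93 and 5.12 CPM in KO and 13.2, 19.4 and 20.3 CPM in WT. The groups did not overlap, and replicate 1 of each group again lay nearest to the other group. On average KO stood at 6.58 ± 2.697 CPM and WT at 17.6 ± 3.89 CPM (SD, n = 3). Its log2 fold change, -1.42 ± 0.31 (SE; adjusted p = 0.0587), was the lowest of the 39 genes. Without a filter on low counts its adjusted p-value was 0.0347, the 1 call among the 39 genes, where 3.25% of the genes so tested were called.

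Atg9a (chromosome 1, 75180860 to 75192196) had 48.1, 44.8 and 51.7 CPM in KO and 61.4, 70.7 and 69.4 CPM in WT, with no overlap. Its log2 fold change was -0.48 ± 0.12 (SE; adjusted p = 0.0734). The exons of Atg9a overlap Ankzf1 on the opposite strand and Gm29253 on the same strand, and how reads were divided there is not known. Wipi2 had a log2 fold change of -0.29 with no overlap, and Atg2a and Atg2b overlapped between groups at 0.05 and -0.25. Wipi1 stood at 0.337, 0.178 and 0.195 of the level of Wipi2 per kilobase in KO and at 0.453, 0.542 and 0.557 in WT.

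Conjugation attaches Atg8-family proteins to the membrane lipid phosphatidylethanolamine: ATG4 proteases expose their ends, ATG7 and ATG3 act as activating and transferring enzymes, and the ATG12-ATG5-ATG16L1 complex, made with the help of ATG10, directs the reaction. Of the 11 genes of this group 8 had a negative and 3 a positive log2 fold change, from -0.38 to 0.24. Atg4a (chromosome X, 140956907 to 141164270) had 10.5, 10.1 and 12.1 CPM in KO and 12.2, 15.4 and 15.1 CPM in WT. Its highest KO value lay just under its lowest WT value, and the log2 fold change was -0.38 ± 0.15 (SE; adjusted p = 0.164). Atg4a shares 99.3% identity over 2115 nt with Atg4a-ps, which received only 33 counts over the 6 libraries. Atg5 (chromosome 10, 44268358 to 44364291) had 38.8, 33.6 and 40.3 CPM in KO and 41.4, 49.7 and 47.3 CPM in WT, with a 95% interval from -0.60 to 0.01. Atg16l1 was also without overlap, at -0.22, and the other 8 genes of the group (Atg3, Atg4b, Atg4c, Atg4d, Atg7, Atg10, Atg12 and Atg16l2) overlapped between groups.

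The Atg8 family, the proteins that coat the membrane and bind cargo receptors, was represented by 5 genes, of which Gabarapl1 was the most abundant of all 39 per kilobase in WT. Gabarapl1 (chromosome 6, 129533160 to 129542346) had 271, 163 and 188 CPM in KO and 298, 420 and 354 CPM in WT. The groups did not overlap, but KO 1 and WT 1 lay close together. Its log2 fold change reached -0.79 ± 0.24 (SE; adjusted p = 0.107). Map1lc3b (chromosome 8, 121590361 to 121598760), which encodes the LC3B protein used as the standard marker of autophagosomes, had 89.3, 104 and 96.8 CPM in KO and 93.2, 117 and 108 CPM in WT, with overlap and a log2 difference of -0.13 ± 0.14. Gabarap (chromosome 11, 69991143 to 69994951) had 136, 151 and 169 CPM in KO and 135, 141 and 139 CPM in WT, with a log2 fold change of 0.14 ± 0.14. Map1lc3a and Gabarapl2 overlapped between groups at -0.06 and -0.13.

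The make-up of the Atg8-family transcripts also differed between libraries. The share of Gabarapl1 in the summed CPM per kilobase of the 5 genes was 53.3%, 37.1% and 38.6% in the KO libraries and 55.6%, 60.2% and 56.4% in WT. The share of Gabarap was 29.3%, 37.6% and 37.8% in KO and 27.5%, 22.1% and 24.1% in WT. Gabarap was thus level with Gabarapl1 to within 1 percentage point in KO 2 and KO 3, whereas in KO 1 and in WT Gabarapl1 held the larger share. These shares were computed after the values were seen and carry no test.

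**Figure D3:**
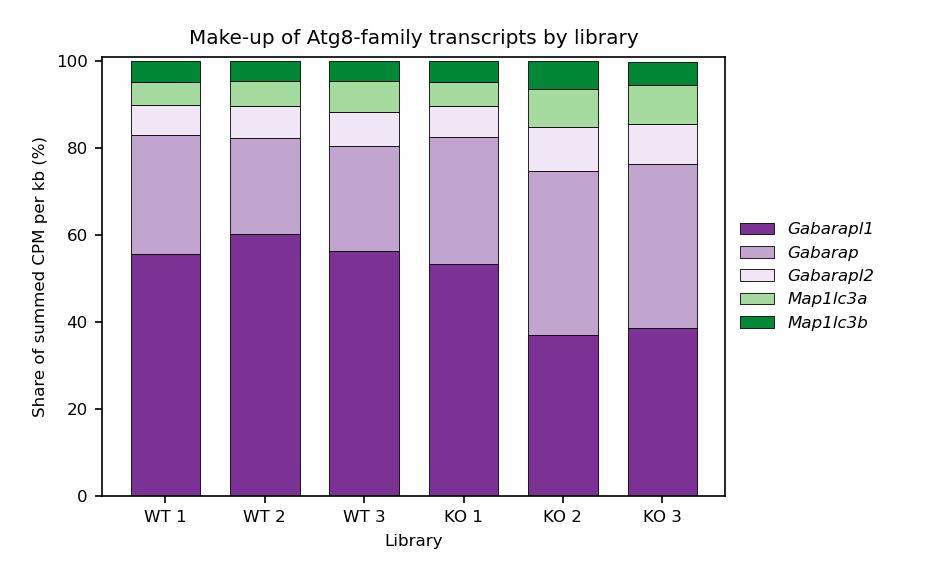
Share (%) of each Atg8-family gene in the summed CPM per kilobase of the 5 genes, 1 stacked bar per library. The Gabarapl1 share is 37.1% in KO 2 and 38.6% in KO 3, and between 53.3% and 60.2% in the other libraries.

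Cargo receptors link ubiquitin-tagged proteins (SQSTM1, also called p62, NBR1 and OPTN) or mitochondria (BNIP3 and BNIP3L) to Atg8 proteins. Sqstm1 (chromosome 11, 50199366 to 50210827) had 333, 729 and 445 CPM in KO and 365, 396 and 384 CPM in WT. KO 2 was the highest and KO 1 the lowest of the 6 libraries. Accordingly the log2 fold change of 0.40 ± 0.29 had a wide 95% interval, from -0.30 to 1.09 (adjusted p = 0.422), and without KO 2 it was 0.03. The SD over 3 libraries was 204 CPM in KO but 15.8 CPM in WT. Bnip3 (chromosome 7, 138890836 to 138909519) had 88.4, 137 and 114 CPM in KO and 146, 140 and 107 CPM in WT. Bnip3l (chromosome 14, 66985239 to 67008877) had 82.4, 102 and 109 CPM in KO and 79.0, 94.6 and 85.5 CPM in WT. Both overlapped, with log2 fold changes of -0.21 ± 0.21 and 0.18 ± 0.15. Nbr1 lay below WT in every KO library by a small margin (-0.13 ± 0.13), and Optn overlapped at 0.08.

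TFEB and TFE3 are transcription factors that turn on lysosomal and autophagy genes. Tfe3 (chromosome X, 7762560 to 7775202) had 27.3, 36.6 and 30.9 CPM in KO and 23.2, 24.9 and 25.9 CPM in WT, with no overlap. Its log2 fold change was 0.36 ± 0.14 (SE; adjusted p = 0.164). Tfeb (chromosome 17, 47737030 to 47792419) was low, at 4.58, 5.98 and 6.88 CPM in KO and 5.97, 4.82 and 5.92 CPM in WT. The small log2 difference of 0.06 ± 0.20 changed sign when KO 3 or WT 2 was left out, to -0.08 and -0.04.

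**Figure D4:**
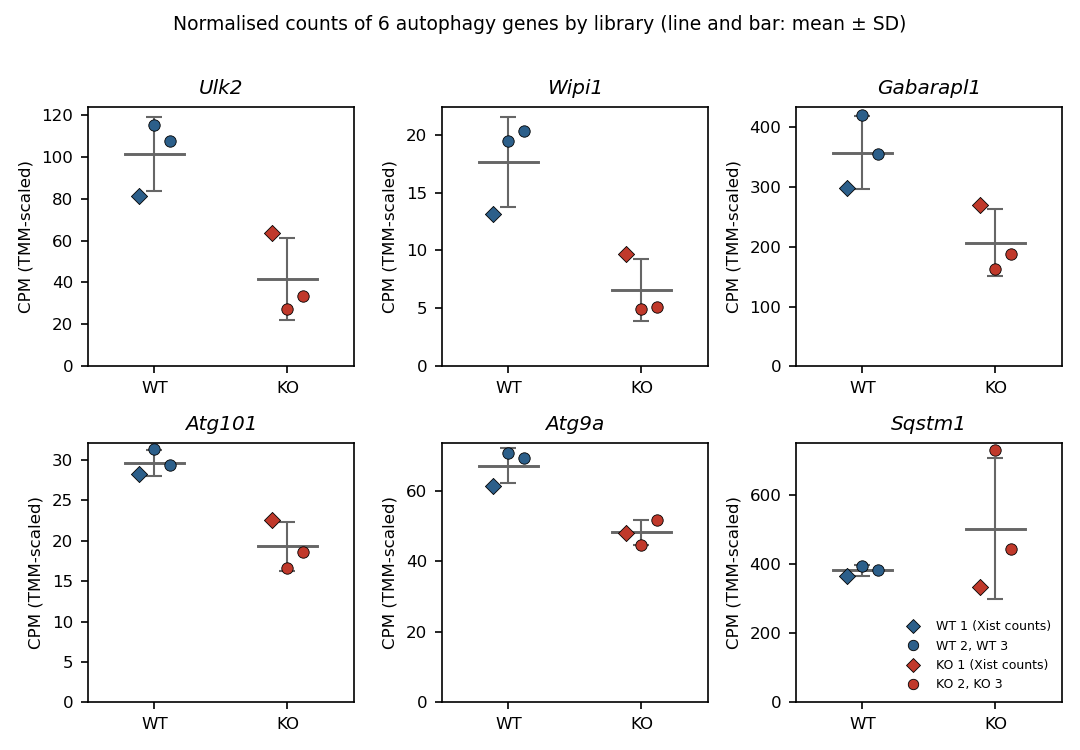
Normalised counts (CPM) of Ulk2, Wipi1, Gabarapl1, Atg101, Atg9a and Sqstm1 in the 3 WT (blue) and 3 KO (red) libraries, with diamonds for replicate 1, and lines and bars for mean ± SD. In the first 5 genes all KO points lie below all WT points, and in Sqstm1 the KO points spread from 333 to 729 CPM around the WT points.

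The difference between KO and WT was itself compared between the Xist pair (1 mouse against 1) and the Y-linked libraries (2 against 2). An interaction of group and this state passed an adjusted p-value of 0.05 in edgeR for 2 of the 39 genes, Ulk2 and Wipi1, against 2.9% of all genes tested. Ulk2 had a log2 ratio of KO to WT of -1.87 among Y-linked libraries, but of -0.35 within the Xist pair (interaction adjusted p = 0.039). Wipi1 had ratios of -1.96 and -0.44 in the same order (interaction adjusted p = 0.0234). For both genes the pair with Xist thus differed less. Gabarapl1 had -1.14 and -0.14, with an interaction that did not pass (adjusted p = 0.147). Of the 39 genes 32 (82.1%) had the same sign in both subsets, where 63% of all genes tested did, and the medians were -0.16 for the Y-linked libraries and -0.13 for the Xist pair. Stk11 was at 22.2 CPM in KO 1 against 14.4 and 11.4 CPM in KO 2 and KO 3. Its log2 ratios were -2.37 among Y-linked libraries and -1.57 within the Xist pair, and its interaction did not pass (adjusted p = 0.164). Summed erythroid markers were also highest in KO 1 among the KO libraries, at 256 CPM against 42 and 58.6 in KO 2 and KO 3. In WT 1, WT 2 and WT 3 they were at 188, 432 and 311 CPM. Much of the WT difference came from Alas2, at 10.1, 133.5 and 120.8 CPM, whereas Hbb-bs was at 67.8, 114.9 and 67.9 CPM. Of the 5 erythroid markers tested, 4 passed the same interaction test. Summed macrophage markers were at 174 CPM in KO 1 and 139 in WT 1, but at 85 and 66.7 in KO 2 and KO 3 and 113 and 154 in WT 2 and WT 3, without overlap among the Y-linked libraries. Of the 6 macrophage markers 2 passed the interaction test, Vsig4 (adjusted p = 0.0306) and Adgre1 (adjusted p = 0.0452). Over all genes tested, log2 CPM of KO 1 correlated at 0.968 with WT 1, and at 0.943 and 0.959 with KO 2 and KO 3. With WT 2 and WT 3 the correlations of KO 1 were 0.956 and 0.953, and KO 2 and KO 3 correlated at 0.983. The part of Stk11, of these markers or of this likeness of KO 1 and WT 1 in the interaction of Ulk2 and Wipi1 was not tested. With 1 mouse per group in the Xist pair, the state and the single mice cannot be told apart.

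Within the 4 Y-linked libraries alone, 8 of the 39 genes passed the threshold in edgeR (20.5%), where 33.3% of all genes tested passed. Ulk2 (-1.87 ± 0.14, SE), Wipi1 (-1.99 ± 0.12), Gabarapl1 (-1.15 ± 0.17), Atg101 (-0.79 ± 0.11), Atg9a (-0.54 ± 0.12), Atg4a (-0.47 ± 0.13) and Wipi2 (-0.42 ± 0.10) fell, and Tfe3 rose (0.41 ± 0.12), with adjusted p-values from 0.000582 for Wipi1 to 0.0492 for Tfe3. Without KO 1 the 6 genes called were Ulk2, Atg101, Wipi1, Atg9a and Gabarapl1, which fell, and Tfe3, which rose, where 30.2% of all genes passed. With a term for the state and all 6 libraries, Atg101, Wipi1 and Atg9a passed, at adjusted p-values of 0.0425, 0.0471 and 0.0499, where 10.3% of all genes did. The shares called among the 39 genes in these fits were 20.5%, 15.4% and 7.69%, beside 33.3%, 30.2% and 10.3% of all genes. With the state term the shares were close, and none of these gaps was tested. The genes at the centre of the machinery that did not pass in any of these fits include Ulk1, Becn1, Atg5, Atg7, Map1lc3b and Sqstm1.

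Levels in WT, as CPM per kilobase of the union of annotated exons, spanned from 178 for Gabarapl1 to 0.95 for Atg16l2. Gabarapl1, Sqstm1 (114), Gabarap (74.9), Bnip3 (57.8) and Nbr1 (30.9) formed the top of the order, and the ranges of neighbours among these 5 over the WT libraries did not overlap. Below them neighbouring genes mostly overlapped, through Gabarapl2 (22.6), Bnip3l (22.4) and Atg3 (20.6) down to Ulk1 (13.6) and Atg9a (11.7). Tfeb (0.98) and Atg16l2 were at the bottom and overlapped with each other. In KO the mean of Sqstm1 (149.7 CPM per kilobase) was above that of Gabarapl1 (103), although the Sqstm1 values of the KO libraries were widely spread. Replicates of one group varied by a median coefficient of variation of 10.5% in WT and 13.4% in KO over the 39 genes, with the highest value for Ulk2 in KO (46.8%). Exon lengths ignore which isoforms are expressed, so these levels are approximate.

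Promoter sequences from RefSeq (GRCm38.p6) were matched by symbol for 32 of the 39 genes, in 38 entries. The stretch upstream of the start is shown, by a choice made after the values were seen, for the 3 genes with the lowest fold changes and, for comparison, for Atg3, the 1 gene whose stretch held the E-box with flanks of the CLEAR element that TFEB and TFE3 are known to bind. Each is written 5′ to 3′ on the strand of the gene, with motif matches in capitals. It stops short of any base that GENCODE M21 places in an exon of the gene. For Wipi1 the annotated gene starts farther upstream, at 109611967, so the printed stretch lies inside the gene but outside its exons. The coordinates are chr11:109611433-109611639 (minus strand) for Wipi1, chr11:61855093-61855342 (minus strand) for Ulk2, chr6:129532942-129533159 (plus strand) for Gabarapl1 and chr16:45158579-45158784 (plus strand) for Atg3.
Wipi1: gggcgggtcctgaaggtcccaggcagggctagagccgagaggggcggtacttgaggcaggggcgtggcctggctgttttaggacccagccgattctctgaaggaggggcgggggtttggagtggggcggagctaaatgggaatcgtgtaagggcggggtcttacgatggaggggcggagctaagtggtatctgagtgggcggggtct
Ulk2: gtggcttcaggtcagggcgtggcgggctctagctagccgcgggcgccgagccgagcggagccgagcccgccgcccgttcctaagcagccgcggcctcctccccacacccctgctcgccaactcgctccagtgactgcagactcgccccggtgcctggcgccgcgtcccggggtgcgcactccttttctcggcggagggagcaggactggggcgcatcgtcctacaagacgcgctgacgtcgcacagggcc
Gabarapl1: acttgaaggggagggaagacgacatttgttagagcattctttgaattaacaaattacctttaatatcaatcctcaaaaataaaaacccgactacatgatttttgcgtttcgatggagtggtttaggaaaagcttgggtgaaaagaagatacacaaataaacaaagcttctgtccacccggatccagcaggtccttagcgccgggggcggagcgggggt
Atg3: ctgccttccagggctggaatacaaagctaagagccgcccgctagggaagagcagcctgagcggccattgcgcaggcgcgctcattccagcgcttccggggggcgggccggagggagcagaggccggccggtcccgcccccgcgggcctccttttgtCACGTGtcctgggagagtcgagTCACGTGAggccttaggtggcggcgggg

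The 250 bases before each start were searched on both strands. Their median GC content was 59.6% over the 38 entries and 52.4% over all entries, and its part in the motif shares was not tested. The E-box core CACGTG was found in 10.5% of the 38 entries (Atg3, Atg5, Atg7 and Bnip3) and in 6.02% of all 32851 entries. The longer TCACGTGA, which contains the core, was found in Atg3 only, and in 0.785% of all entries. The cyclic AMP response element TGACGTCA was found in Atg16l2 only, against 1.55% of all entries. Of the forkhead motifs, TGTTTAC was found in 0 of the 38 entries (3.17% of all) and TGTTTGC in Atg7 (4.3% of all). The Atg7 entry (chr6:114670846-114671095, plus strand), with both of its matches, lies inside the annotated gene, which starts at 114643097. The entries of Wipi1, Wipi2, Atg4b and Atg14 also lie inside their annotated genes. For these genes the bases before the outermost annotated start were not searched. The printed stretches of Wipi1, Ulk2 and Gabarapl1 held none of these 5 strings. Atg3 itself had 59.8, 49.98 and 73.7 CPM in KO and 70.9, 66.4 and 57.5 CPM in WT, with a log2 fold change of -0.09 ± 0.17 and overlapping groups.

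Other genes of the pathway were examined in 4 lists. Of 31 tested genes with further roles in autophagy, 0 rose and 1 fell. This was Trp53inp2 (chromosome 2, 155381059 to 155389850), whose product moves from the nucleus to autophagosomes and binds Atg8 proteins. It had 97.8, 71.1 and 69.6 CPM in KO and 181, 206 and 224 CPM in WT, so that it fell by 1.36 ± 0.19 (SE) on the log2 scale at an adjusted p of 0.0226. As a log2 ratio it stood at -1.61 among Y-linked libraries and at -0.89 within the Xist pair. The median over this list was 0.01. DESeq2 called 4 higher and 2 lower genes of this list (19.4%, where it called 15.8% of all genes), and limma voom 0 and 1.

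Of 43 lysosomal genes 1 passed, Gusb (chromosome 5, 129989011 to 130003049), which encodes beta-glucuronidase. It rose from 22.4, 25.9 and 26.4 CPM in WT to 37.2, 46.7 and 59.4 CPM in KO, by 0.94 ± 0.19 (SE; adjusted p = 0.0489) on the log2 scale. The median over the 43 genes was -0.06, and 9 genes lay above and 14 below WT without overlap, that is 20.9% and 32.6%, where 16.9% and 15.5% of all genes did. DESeq2 called 3 higher and 6 lower lysosomal genes (20.9%, where it called 15.8% of all genes), and limma voom 0. Of 34 regulators of mTORC1 and AMPK subunits 0 passed in edgeR, 0 in limma voom and 5 in DESeq2 (14.7%, beside 15.8% of all genes). In edgeR 10 of them had an unadjusted p-value under 0.05. These were 5 higher and 5 lower in KO (14.7% each, beside 14.6% and 11.7% of all genes). The smallest p-value was that of Fnip2 (chromosome 3, 79455974 to 79567796), which encodes a partner of folliculin. It had 16.7, 9.67 and 8.28 CPM in KO and 34.6, 30.4 and 22.3 CPM in WT (log2 fold change -1.33 ± 0.30, adjusted p = 0.0605). Fnip2 passed in DESeq2 (adjusted p = 0.000687) and, in edgeR, without the filter (0.0368) and with the state term (0.0208). It also passed in edgeR among the Y-linked libraries (0.0037) and without KO 1 (0.00414), fits that called 33.3% and 30.2% of all genes. It did not pass in limma voom (0.0563) or, in edgeR, with RLE scaling (0.0597) or library size alone (0.0749). Nor did it pass in edgeR when any library but KO 1 was left out (0.131 to 0.222). Of 14 other transcription factors linked to autophagy 1 passed, Xbp1 (chromosome 11, 5520659 to 5525893), a factor of the endoplasmic reticulum stress response. It fell from 190, 151 and 189 CPM in WT to 75.04, 92.6 and 82.9 CPM in KO, by 1.08 ± 0.16 (SE; adjusted p = 0.0261) on the log2 scale. DESeq2 called 1 higher and 3 lower of these 14 factors (28.6%, where it called 15.8% of all genes), and limma voom 0 and 1. The shares called in the 4 lists by edgeR on all libraries, 3.23%, 2.33%, 0% and 7.14%, stand beside 3.37% of all genes. Among the Y-linked libraries alone the shares were 51.6%, 32.6%, 38.2% and 50% in the same order, beside 33.3% of all genes. These differences in share were not tested. The call of Trp53inp2 was lost in edgeR when KO 2, KO 3, WT 2 or WT 3 was left out (adjusted p of 0.0716 to 0.14), and those of Xbp1 (0.0564 to 0.143) and Gusb (0.115 to 0.211) when any library but KO 1 was left out. Gusb also missed the threshold in limma voom (adjusted p = 0.0532) and with RLE scaling in edgeR (0.0508).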

How the data were processed

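Poly(A) RNA from 6 livers was sequenced as paired reads of 76 nt. The authors deposited expected counts per gene, which are estimated numbers of reads. The submitters' processing notes name bcl2fastq 2.17, cutadapt 1.18, STAR 2.7.0f, RSEM 1.3.1 and the genome build mm9. All 55450 versioned gene identifiers nevertheless match GENCODE release M21 for GRCm38, from which positions, exons and lengths were taken by identifier. The use of strand is not given in the sources used here, so counts of overlapping genes are uncertain. Reads that fit several copies of a gene were divided by estimate, and between 4.93% and 5.47% of values per library were not whole.

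Expected counts were rounded. Genes were kept by filterByExpr, scaled by TMM and tested with the quasi-likelihood test of edgeR 4.0.16 (R 4.3.3) with group as the only term, and p-values were adjusted by Benjamini-Hochberg over all 14539 genes. SE is the size of the fold change divided by the square root of the F statistic, and 95% intervals use the degrees of freedom of the test. Alternatives were DESeq2 1.42.0, limma voom (3.58.1), other scaling, no filter, left-out libraries, a replicate block and the Xist state of the library. Log2 ratios within subsets use an offset of 0.1 CPM. The edgeR script was tested on simulated data with known changes. At the spread estimated from these libraries it called 16 of 97 simulated 2-fold changes (16.5%) and 62 of 99 simulated 4-fold changes (62.6%). With the spread scaled by 0.25 it called 80.6% and 99%. Among the genes tested as a whole, a gene that did not pass can therefore still differ by 2-fold or more. For 35 of the 39 autophagy genes, however, the 95% interval lay within 2-fold in both directions. The intervals of Ulk2, Wipi1, Gabarapl1 and Sqstm1 reached a 2-fold change. Columns were matched to samples by the names in the descriptions, which left 0 unmatched columns. The labels describe separate mice. The lowest chi-square per degree of freedom between any pair of libraries was 30.7, where near-identical libraries would give about 1.

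The 39 genes and all lists were chosen with earlier results of these data known. Values per library are given for the 2 genes with the smallest p-value in each functional group, for Ulk1, Becn1, Map1lc3b, Sqstm1, Bnip3, Tfeb and Tfe3, for genes with an interaction, and for up to 3 called genes, or else the 1 with the smallest p-value, of each further list. Atg3 was added after its promoter had been searched. No protein sequences were used here.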

Additional observations from a re-analysis of the deposited data

Results flagged for a closer look

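For 2 of the 39 genes the difference between KO and WT was not the same in the Xist pair (replicate 1 of each group) as in the Y-linked libraries, by the interaction term of edgeR. For Ulk2 the interaction was 1.52 on the log2 scale (adjusted p = 0.039), and for Wipi1 it was 1.54 (adjusted p = 0.0234). In both genes KO 1 was the highest KO library and WT 1 the lowest WT library. The Xist pair is 1 mouse against 1. Over all 14539 genes tested, 421 passed the same test.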

How the results depend on the processing

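Calls depended strongly on which libraries entered and on the tool. Among all genes 490 passed in edgeR, 2290 in DESeq2, 771 without the filter on low counts, 1504 with a term for the Xist state and 4847 among Y-linked libraries alone. Leaving out 1 library gave from 6 (without WT 2) to 4473 (without KO 1), and also 20 without WT 3, 35 without KO 3, 86 without KO 2 and 262 without WT 1. For the 39 autophagy genes the count of 0 became 5 in DESeq2, 1 without the filter, 3 with the state term and 8 among Y-linked libraries, and ranged from 0 to 6 over left-out libraries, where only the omission of KO 1 gave calls. It remained 0 in limma voom and with the other 2 scalings. The cause was not tested. With the replicate block 105 genes and 0 of the 39 passed. Same-numbered samples are different mice, and their deviations from the group means correlated at 0.178, 0.0443 and 0.0679, so the numbers were not taken to pair them. The interaction passed for 421 genes, for 398 with library size alone and for 1607 without the filter. Among the named genes the sign changed for Tfeb without KO 3 and without WT 2 (range over left-out libraries -0.07667 to 0.1989), and for Bnip3 among Y-linked libraries (0.0162). The other directions held in all 14 alternatives, with 28 calls gained and 19 lost. With the block Trp53inp2 (adjusted p = 0.0685), Gusb (0.0663) and Xbp1 (0.0789) did not pass, and Fnip2 (0.0483) did. The lowest count of any of the 39 genes was 132, for Atg10, and the share of counting error in the spread between mice was not tested.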
